A study of Mus musculus with 28 samples.

Results

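The 42 genes described here encode the machinery of DNA replication. They were taken by symbol from each of the 6 deposited gene tables, which hold 36806 genes each, and every symbol matched 1 gene. By role they comprise 9 licensing genes, 6 firing genes and 6 polymerase and primase genes. A further 8 genes encode the sliding clamp, its loader and the single-strand binding protein. Of the rest, 2 join Okazaki fragments, 4 serve nucleotide supply, 4 are tied to chromatin on new DNA, and 3 act in S phase entry. Replication origins are licensed in G1, when ORC, CDC6 and CDT1 load the MCM helicase, and they fire in S phase, when MCM10, CDC45 and the GINS complex activate it. Most of these genes are transcribed in a wave around the start of S phase under E2F factors, so their RNA is commonly read as a sign of dividing cells. Macrophages grown with CSF1 divide in culture, and LPS is known to stop that division.

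FVB/Hsd mouse bone marrow was differentiated into macrophages for 7 days in medium conditioned by L929 cells, a source of CSF1, and the cells were infected with retrovirus and selected with puromycin. Every group carried a retroviral vector. The Wdr82 hairpin sh1137 was set against the empty vector LMP in unstranded 4sU RNA (untreated, and LPS for 45 min, 2 h and 4 h), in stranded 4sU RNA (untreated and LPS for 1 h) and in polyA RNA (untreated and LPS for 4 h). It was set against a scrambled hairpin in stranded 4sU RNA after 45 min of LPS, in cells with DRB and in cells without it. DRB blocks productive elongation by RNA polymerase II. Hairpins against Set1a and Set1b together, and a hairpin against Pnuts, were each set against a scrambled hairpin in stranded 4sU RNA (untreated and LPS for 45 min). LPS, a bacterial cell wall component, was given at 10 ng/ml. RNA labelled for 45 min with 4-thiouridine (4sU) is enriched for newly made transcripts, while polyA RNA is the standing mRNA. WDR82 and PNUTS are subunits of a phosphatase complex that acts in transcription termination, and WDR82 is also a subunit of the SET1A and SET1B histone methyltransferase complexes. Each of the 28 conditions had 1 library, only 1 Wdr82 hairpin was used, and in the tables with LMP as control an effect of losing Wdr82 cannot be told apart from an effect of carrying any hairpin.

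RefSeq promoter entries (build GRCm38.p6, 250 bases before to 50 bases after a transcript start) were matched to 34 of the 42 genes. A canonical E2F site, searched on both strands as TTTCCCGC, TTTGGCGC, TTTCGCGC or TTTGCCGC, was found in 12 of the 34 genes (35.3%) and in 12 of their 39 promoter entries (30.8%), against 744 of all 32851 entries (2.26%). The letters CCAAT, the NF-Y box, were found on either strand in 23 of the 39 entries (59.0%), against 37.4% of all entries. The 170 bases before the start site are shown for 4 genes with an E2F match and for Rrm2 and Mcm10, which have none in the window. Rrm2 had the lowest log2 change with sh1137 in the unstranded 4sU table, and Mcm10 was the member that rose after 4 h of LPS in that table. Each runs 5′ to 3′ on the gene's strand, with E2F matches in capitals; the 12 capitals in Mcm5 and the first 12 in Mcm6 are a pair of matches that overlap on opposite strands.
Mcm5, chr8:75109339-75109508, plus strand: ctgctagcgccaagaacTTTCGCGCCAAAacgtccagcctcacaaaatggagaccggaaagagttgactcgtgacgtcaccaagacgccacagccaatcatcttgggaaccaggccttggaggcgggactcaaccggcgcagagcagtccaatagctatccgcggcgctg
Mcm6, chr1:128359706-128359875, minus strand: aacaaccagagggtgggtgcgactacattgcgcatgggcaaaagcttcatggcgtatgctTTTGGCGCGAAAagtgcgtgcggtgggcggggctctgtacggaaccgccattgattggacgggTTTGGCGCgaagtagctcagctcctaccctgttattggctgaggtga
Cdc6, chr11:98907981-98908150, plus strand: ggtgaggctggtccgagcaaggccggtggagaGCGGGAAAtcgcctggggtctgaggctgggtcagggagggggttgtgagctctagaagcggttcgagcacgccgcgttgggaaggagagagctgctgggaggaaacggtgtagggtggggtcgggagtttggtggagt
Gins3, chr8:95633389-95633558, plus strand: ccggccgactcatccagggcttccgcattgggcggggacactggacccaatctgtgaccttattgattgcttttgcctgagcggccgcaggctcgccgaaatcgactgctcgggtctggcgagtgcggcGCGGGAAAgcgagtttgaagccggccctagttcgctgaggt
Rrm2, chr12:24708084-24708253, plus strand: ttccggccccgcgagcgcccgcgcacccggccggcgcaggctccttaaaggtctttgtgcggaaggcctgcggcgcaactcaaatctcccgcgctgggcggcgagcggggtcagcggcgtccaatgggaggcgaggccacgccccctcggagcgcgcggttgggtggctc
Mcm10, chr2:5012792-5012961, minus strand: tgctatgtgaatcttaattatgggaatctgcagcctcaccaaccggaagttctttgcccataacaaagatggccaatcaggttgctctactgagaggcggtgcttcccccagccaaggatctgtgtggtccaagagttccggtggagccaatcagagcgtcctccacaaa
These letters are a description of the reference sequence, and no binding was measured.

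The targeted genes were read first. Wdr82 stood at 10.3, 11.7, 11.8 and 16.2 FPKM with sh1137 (untreated, 45 min, 2 h and 4 h of LPS), against 21.6, 23.8, 27.0 and 32.5 FPKM in the control of the unstranded 4sU table. In polyA RNA Wdr82 was 3.71 and 4.03 FPKM with sh1137 and 16.8 and 22.6 FPKM in the control. Ppp1r10 is the gene of PNUTS, and its level went against the label of the Pnuts sh libraries, with 144 and 332 FPKM there, against 89.5 and 203 FPKM with the scrambled hairpin, so directions drawn from that table rest on the label. Ppp1r10 was also higher with sh1137 in unstranded 4sU RNA (log2 change 1.15, SE 0.11, limma adjusted p = 0.013), and the cause was not tested. Setd1a was 14.8 and 13.5 FPKM in the Set1a and Set1b hairpin libraries and 16.1 and 18.1 FPKM in the scrambled ones, and Setd1b was 11.8 and 6.70 FPKM with the hairpins and 11.3 and 10.5 FPKM with the scrambled one. In untreated cells Setd1b was thus not lower with the hairpins, and neither gene passed (limma adjusted p = 0.32 for Setd1a and 0.50 for Setd1b), so a knockdown is not shown in these libraries and their directions rest on the label too. No polyA library was made with the Set1a and Set1b or the Pnuts hairpins, so the standing mRNA of their targets was not measured.

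Genes at 1 FPKM or more numbered 11533 to 13799 per library, and the relative depth of libraries within a table, read from the spacing of low values, differed by 1.60-fold to 3.34-fold. All 8 macrophage markers reached 1 FPKM in every table, while the erythroid and mast cell lists summed to at most 5.25 FPKM and 1.05 FPKM in any library. Some marker sums moved with the hairpins. The macrophage sum without Lyz2, which is listed at 0 in 3 of the 4 polyA libraries, was 1832 and 3085 FPKM with sh1137 in polyA RNA (untreated and LPS 4 h), against 3309 and 7382 FPKM in the control. In the unstranded 4sU table it was 613 to 1404 FPKM with sh1137 and 851 to 2621 FPKM in the control. With Lyz2 included it was 2376 to 3814 FPKM with sh1137 and 2415 to 5056 FPKM in the control. With Lyz2, the libraries labelled Set1a and Set1b hairpins summed to 5568 to 8688 FPKM, against 3291 to 5008 FPKM in their controls. Those labelled Pnuts sh summed to 7114 to 9635 FPKM, against 3368 to 5072 FPKM. Without Lyz2, untreated sums were lower with the hairpins in both, at 999 against 1365 FPKM and 1072 against 1351 FPKM. The neutrophil sum was 61.4 to 106 FPKM with sh1137 and 28.2 to 63.7 FPKM in the control of the unstranded 4sU table, and 73.4 and 63.7 FPKM with sh1137 (untreated and LPS 1 h) and 31.3 and 29.8 FPKM in the control of the stranded one. It was 43.4 and 51.5 FPKM in the libraries labelled Set1a and Set1b hairpins (untreated and LPS 45 min), against 12.9 and 17.7 FPKM with the scrambled hairpin, and 18.9 and 17.2 FPKM in those labelled Pnuts sh, against 27.3 and 34.2 FPKM with the scrambled hairpin. The myeloid progenitor sum, carried mainly by Cd34, was 7.14 to 8.54 FPKM in the Pnuts hairpin libraries and 26.2 to 30.7 FPKM in their controls. The lymphocyte sum was 28.3 to 39.0 FPKM with sh1137 and 75.2 to 115 FPKM in the control of the polyA table. The part of these shifts in the results below was not tested. In bulk RNA, fewer cells of a type and less RNA per cell cannot be told apart.

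All 42 genes were expressed. Every one of their 1176 values had a status of OK, and 5 values were under 1 FPKM, with at least 40 genes at 1 FPKM or more in each library. FPKM is a level per transcript length, so genes can be ranked within a library. Pcna, the sliding clamp that holds polymerases on DNA, was the highest in 26 of the 28 libraries, at 61.5 to 222 FPKM in the 22 4sU libraries made without DRB and 41.0 to 121 FPKM in the 4 polyA libraries. The second highest changed with the table, being Tk1, Lig1, Mcm6 or Mcm10 in the unstranded 4sU libraries and Lig1, Slbp, Uhrf1 or Pcna itself in the stranded ones. Over the 22 4sU libraries Gins3, a GINS subunit, lay at 3.07 to 18.8 FPKM and Cdc6, the helicase loader, at 0.792 to 19.3 FPKM. In polyA RNA Cdc6 was the lowest by median over the 4 libraries, at 0.745 FPKM (0.182 to 4.34), next to Ccne2, a cyclin E, at 1.80 FPKM (0.635 to 9.0). Levels in different tables were scaled separately and were compared within a table. The loci of 29 members hold no other gene, while 13 share theirs (Mcm7, Cdc45, Gins2, Pola1, Pole, Rfc4, Rfc5, Lig1, Fen1, Tyms, Tk1, Chaf1a and Ccne2), where reads of overlapping genes may not be separated.

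With the Wdr82 hairpin, newly made RNA of the replication genes was lower. In the unstranded 4sU table, 20 of the 42 genes fell and none rose (limma over all 16106 genes tested, adjusted p under 0.05), against 5.66% of all genes that fell. The median log2 change was -0.50 over the 42 genes and 0.03 over all genes, and 38 of the 42 lay below 0. The 4 LPS times served as the repeats of the contrast. The labels do not say that they came from separate infections, so the p-values measure the spread between these libraries only. Leaving out 1 time left 8 calls without the 4 h pair and 0 calls without the untreated, the 45 min or the 2 h pair. The medians were -0.46 to -0.54. Leaving out a time lowers the residual degrees of freedom for every gene, and the share of all genes called was not counted there.

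Of the 9 licensing genes 6 fell. Mcm3, an MCM helicase subunit (ENSMUSG00000041859, mm9 chromosome 1, 20793054 to 20810359), had 29.7, 33.5, 18.3 and 8.68 FPKM with sh1137 in untreated cells and after 45 min, 2 h and 4 h of LPS. The control had 46.2, 53.6, 28.6 and 13.5 FPKM at the same times, so sh1137 was lower at each of them (log2 change -0.62, SE 0.06, limma adjusted p = 0.013). Mcm6 fell most of the licensing genes, with 34.6, 31.6, 20.9 and 17.3 FPKM under sh1137 and 53.2, 59.6, 40.1 and 27.6 FPKM in the control (-0.76, SE 0.08, limma adjusted p = 0.016). Mcm5, Mcm2, Mcm4 and Mcm7 fell by 0.61, 0.57, 0.51 and 0.49 on the log2 scale. Orc6, the small subunit of the origin recognition complex, Cdc6 and Cdt1 did not pass. Cdt1, the licensing factor that is kept to G1, had 37.4, 24.7, 10.1 and 27.1 FPKM with sh1137 and 39.8, 31.1, 14.6 and 7.05 FPKM in the control. It was lower with sh1137 at the first 3 times and far higher at 4 h.

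Of the 6 firing genes, Cdc45, Gins3 and Mcm10 fell. Cdc45, a partner of the MCM ring in the active helicase, had 8.18, 8.81, 5.17 and 3.22 FPKM with sh1137 and 10.8, 16.1, 7.63 and 4.96 FPKM in the control (-0.54, SE 0.10, limma adjusted p = 0.042). Mcm10 had the smallest change that passed, -0.35, SE 0.07, limma adjusted p = 0.049. Gins1 stood at 10.3, 10.2, 6.70 and 15.0 FPKM with sh1137 and 16, 11.2, 7.65 and 8.55 FPKM in the control, lower at the first 3 times and higher at 4 h. Gins2 was lower with sh1137 at each time without passing, and at 4 h had 6.11 FPKM with sh1137 and 16.9 FPKM in the control.

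Among polymerase genes, Prim1 and Pold1 fell. Prim1, the catalytic primase subunit, had 10.3, 7.31, 3.84 and 2.11 FPKM with sh1137 and 17.9, 13.8, 9.25 and 5.88 FPKM in the control (-0.95, SE 0.11, limma adjusted p = 0.016). Pold1, the catalytic subunit of polymerase delta, had 11, 9.82, 3.48 and 2.75 FPKM with sh1137 and 20.4, 16.5, 8.79 and 5.64 FPKM in the control (-0.87, SE 0.10, limma adjusted p = 0.017). Pole, of polymerase epsilon, was lower at each time without passing (-0.62, SE 0.16, limma adjusted p = 0.073). Pola1, Pola2 and Prim2, the other subunits of polymerase alpha-primase, had log2 changes of -0.28, -0.14 and -0.24, none of which passed.

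Of the 8 clamp, loader and single-strand binding genes 2 fell. Rpa1, the large subunit of the single-strand binding protein, had 29.2, 22.4, 17.2 and 7.00 FPKM with sh1137 and 36.1, 39.7, 31.2 and 12.8 FPKM in the control (-0.68, SE 0.12, limma adjusted p = 0.033). Rfc4 fell (-0.57, SE 0.10, limma adjusted p = 0.033), but its locus holds 7 genes. Pcna had 82.7, 106, 61.5 and 70.2 FPKM with sh1137 and 115, 142, 98.3 and 77.5 FPKM in the control, lower at each time (-0.43, SE 0.10, limma adjusted p = 0.059). Rfc1, Rfc2, Rfc3 and Rfc5 of the loader had log2 changes of -0.17, 0.12, -0.25 and -0.33 and did not pass, nor did Rpa2 at -0.40. Of the joining enzymes, the flap nuclease Fen1 fell (-0.46, SE 0.06, limma adjusted p = 0.022), while Lig1, at 36.7, 34.1, 33.3 and 16.3 FPKM with sh1137 and 53.0, 76.3, 39.9 and 31.2 FPKM in the control, did not pass (-0.70, SE 0.16, limma adjusted p = 0.059).

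The lowest log2 change of the 42 genes belonged to Rrm2, the small subunit of ribonucleotide reductase, which makes deoxynucleotides (ENSMUSG00000020649, mm9 chromosome 12, 25393105 to 25399011). Rrm2 had 19.6, 18.3, 9.20 and 2.52 FPKM with sh1137 and 42.4, 44.8, 22.0 and 5.45 FPKM in the control, so the sh1137 level was lower at each time (-1.09, SE 0.09, limma adjusted p = 0.011). Its large subunit Rrm1 fell as well (-0.73, SE 0.07, limma adjusted p = 0.013). The thymidylate enzymes Tyms and Tk1 did not pass, at log2 changes of -0.41 and 0.04. Uhrf1, which carries DNA methylation to the new strand, had 31.4, 31.0, 15.3 and 3.89 FPKM with sh1137 and 60.6, 62.5, 34 and 7.94 FPKM in the control (-0.97, SE 0.07, limma adjusted p = 0.0094). Chaf1a, a subunit of the histone chaperone CAF-1, fell (-0.58, SE 0.07, limma adjusted p = 0.02). Its partner Chaf1b had 19.1, 39.9, 8.72 and 3.88 FPKM with sh1137 and 21.4, 26.3, 12.4 and 2.65 FPKM in the control, higher at 45 min and 4 h and lower at the other times. Of the S phase entry genes, the cyclin Ccne1 (-0.86, SE 0.13, limma adjusted p = 0.025) and the transcription factor E2f1 (-0.54, SE 0.08, limma adjusted p = 0.027) fell. Ccne2 did not pass (-0.58, SE 0.13, limma adjusted p = 0.058), and Slbp was -0.19.

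**Figure D1:**
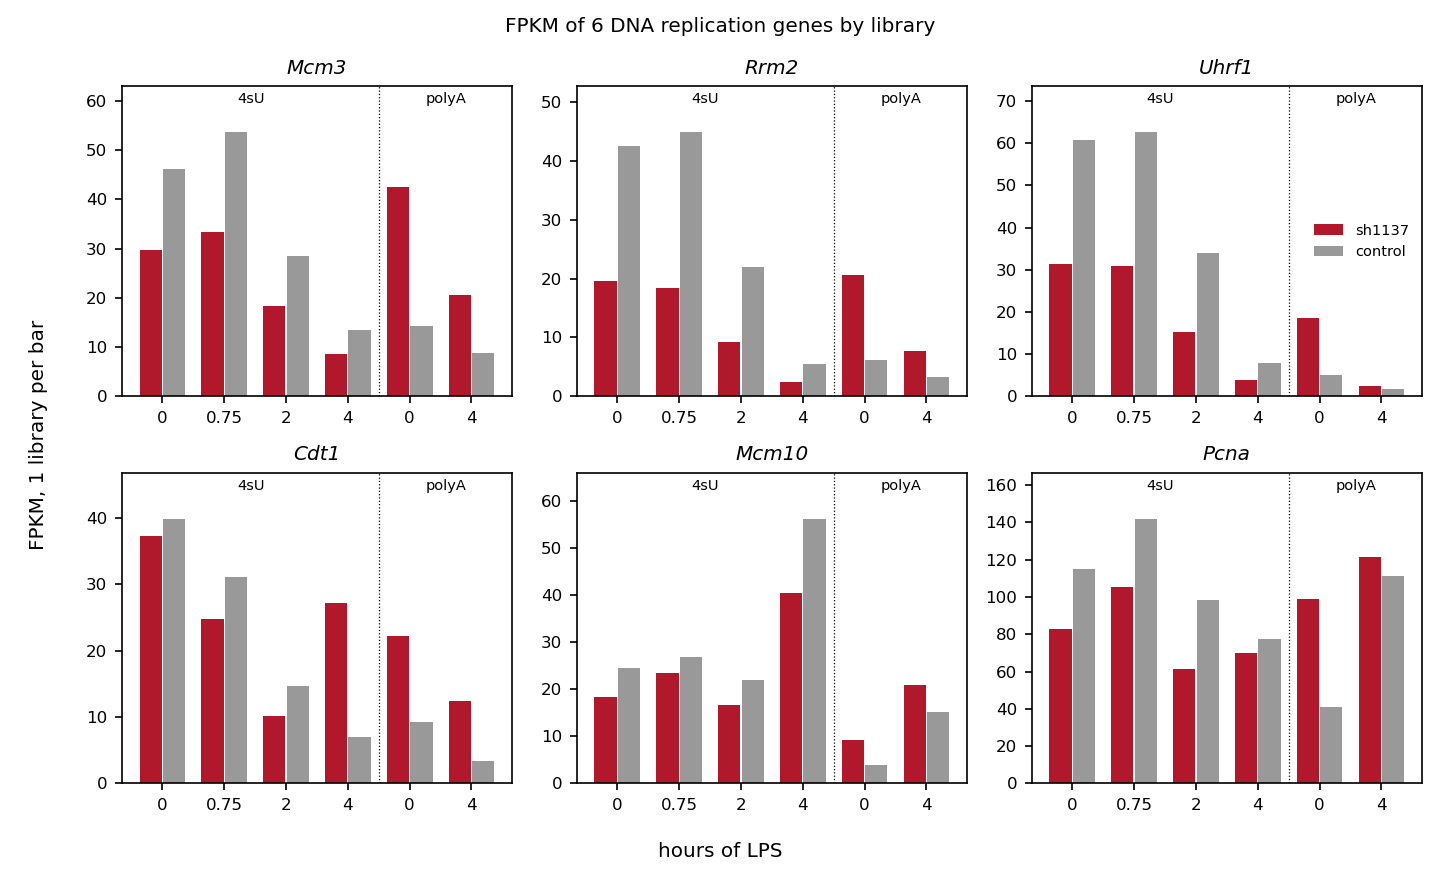
FPKM of Mcm3, Rrm2, Uhrf1, Cdt1, Mcm10 and Pcna (y axis) by hours of LPS (x axis) in unstranded 4sU RNA, left of the dotted line, and polyA RNA, right of it. Each bar is 1 library, sh1137 left of control; sh1137 bars of Mcm3, Rrm2 and Uhrf1 are the lower ones at all 4 times of 4sU RNA and the higher ones at both times of polyA RNA.

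The stranded 4sU libraries gave fewer calls with only 4 libraries. Of the 42 genes, 4 fell and none rose, against 1.07% of the 14312 genes tested that fell, while 41 lay below 0 and the median was -0.53. Uhrf1 had 20.3 and 19.6 FPKM with sh1137 (untreated and LPS 1 h) and 42.1 and 53.6 FPKM in the control (-1.21, SE 0.16, limma adjusted p = 0.043). Rrm2 had 24.8 and 22.0 FPKM with sh1137 and 51.8 and 44.2 FPKM in the control (-1.01, SE 0.13, limma adjusted p = 0.041). Cdc6 had 8.71 and 9.32 FPKM with sh1137 and 18.6 and 18.8 FPKM in the control (-0.97, SE 0.14, limma adjusted p = 0.049), and Lig1 had 56.9 and 56.5 FPKM with sh1137 and 105 and 115 FPKM in the control (-0.94, SE 0.12, limma adjusted p = 0.044). For each of these 4 genes both sh1137 values lay below both control values, which describes genes already picked by the test. The count was 0 without the filter on low values and 0 without the mean-variance trend in limma. It was 7 with a pseudocount of 0.1 and 9 with a filter at 5 FPKM, and shares of all genes were not counted for these settings. Without DRB, after 45 min of LPS, 41 of the 42 genes lay below 0 with sh1137 in the DRB table, and with DRB 28 did. None of the 42 passed in that table (limma, 0.0356% of all genes fell), and 11 were lower at an unadjusted p under 0.05, against 6.23% of all genes. Over the 8 sh1137 pairs of 4sU libraries, 22 of the 42 genes were below 0 in every pair, and Rrm2 lay between -1.24 and -0.45. The share of all genes below 0 in every pair was not counted, so this number is a description.

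**Figure D2:**
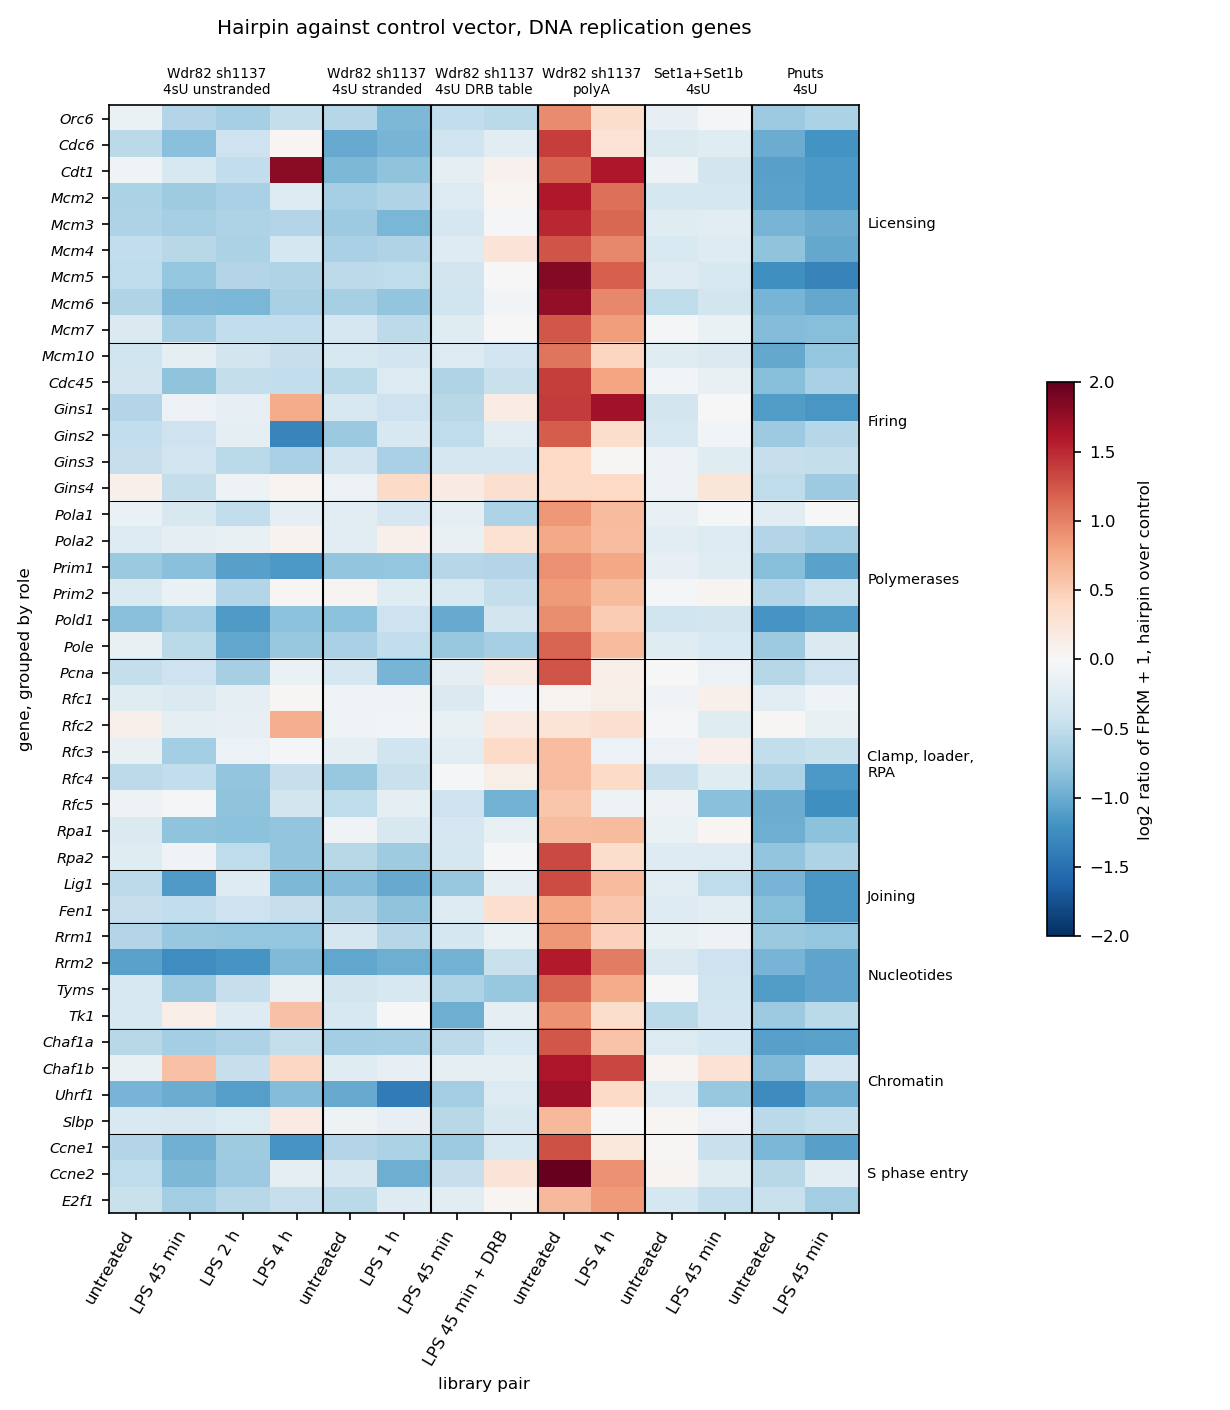
Log2 ratio of FPKM + 1, hairpin over control, for the 42 genes (rows, by role) in the 14 hairpin pairs of libraries (columns, by table). Blue is lower and red higher with the hairpin, on a scale from -2 to 2; the pairs of polyA RNA are red for 42 genes in untreated cells, while the 4sU pairs are mostly blue.

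In polyA RNA the replication genes stood higher with the same hairpin, though none passed the test. All 42 genes had a mean log2 change above 0 with sh1137, with a median of 0.77 against -0.07 for all genes. With 4 libraries, limma called 0 of the 42 and 0 of all 12899 genes tested (0% called), and 32 of the 42 were higher at an unadjusted p under 0.05, against 6.89% of all genes. In the untreated pair 23 of 42 were at least 2-fold higher, against 3.09% of all genes, and after 4 h of LPS 7 of the 41 that could be compared, against 3.72%. A single pair has no test, and the deposited confidence bounds overlapped for each of the 42 in both pairs. They also overlapped in every hairpin pair of 4sU RNA, apart from 1 gene that was lower at 1 h of LPS in the stranded table. In the LPS and DRB pairs they were apart for 1 gene, lower after 4 h of LPS in polyA RNA of sh1137 cells.

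Mcm5 had 43.4 and 27.7 FPKM with sh1137 in untreated cells and after 4 h of LPS, against 11.5 and 11.6 FPKM in the control (log2 change 1.51, SE 0.21, limma adjusted p = 0.14). Mcm3 had 42.6 and 20.6 FPKM with sh1137, against 14.3 and 8.74 FPKM in the control (1.33, SE 0.15, limma adjusted p = 0.13), and Rrm2 had 20.6 and 7.68 FPKM with sh1137, against 6.19 and 3.25 FPKM in the control (1.31, SE 0.19, limma adjusted p = 0.15). The lower sh1137 value of Mcm5, Mcm3 and Rrm2, after LPS, lay above both control values, and the share of all genes without overlap was not counted. Gins1 had the highest mean change, with 13.1 and 20.1 FPKM with sh1137 and 4.37 and 5.6 FPKM in the control (1.53, SE 0.15, limma adjusted p = 0.11). Cdt1 and Ccne2 had log2 changes of 1.40 and 1.46, and Chaf1b of 1.47. Uhrf1 was 18.7 and 2.51 FPKM with sh1137 and 5.07 and 1.68 FPKM in the control, so the gap was wide in untreated cells and narrow after LPS. Pcna likewise had 98.9 and 121 FPKM with sh1137 and 41.0 and 111 FPKM in the control. The loader subunit Rfc1 had nearly equal levels, 18.2 and 8.37 FPKM with sh1137 and 17.5 and 7.60 FPKM in the control (0.09).

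The sh1137 ratio differed between polyA and unstranded 4sU RNA for 27 of the 42 genes, each higher in polyA RNA (limma on the 2 polyA and 4 4sU ratios, each taken within its table), against 2.71% of the 12599 genes tested. The median difference was 1.33 on the log2 scale over the 42 genes and -0.09 over all genes, and all 42 differences were above 0. Rrm2 had the largest difference, 2.40, SE 0.20, limma adjusted p = 0.011, from mean ratios of 1.31 in polyA and -1.09 in 4sU RNA. Mcm5 and Mcm6 followed at 2.12, SE 0.20 and 2.12, SE 0.23, and Ccne2, Uhrf1, Mcm3 and Mcm2 were at 2.04, 2.01, 1.95 and 1.92. Licensing genes passed in 7 of 9 cases, polymerase and primase genes in 6 of 6, and clamp, loader and single-strand binding genes in 2 of 8. Rfc2 and Rfc1 had the smallest differences, 0.19, SE 0.27, limma adjusted p = 0.72 and 0.26, SE 0.14, limma adjusted p = 0.33. With the 4sU ratios restricted to untreated cells and 4 h of LPS, the times present in both tables, the median was 1.27 and 0 genes passed. Without the filter on low values 8 passed. For neither setting was the share of all genes counted. The polyA and 4sU libraries share no library, but their levels were scaled separately. Their macrophage marker sums without Lyz2, given above, were lower with sh1137 in both. The myeloid progenitor sum did not move alike in untreated cells. It was 4.53 and 6.34 FPKM with sh1137 in polyA RNA (untreated and LPS 4 h), against 2.11 and 12.7 FPKM in the control. In unstranded 4sU RNA at those times it was 10.7 and 14.8 FPKM with sh1137, against 17.1 and 20.4 FPKM in the control. The part of these sums in the difference was not tested.

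**Figure D3:**
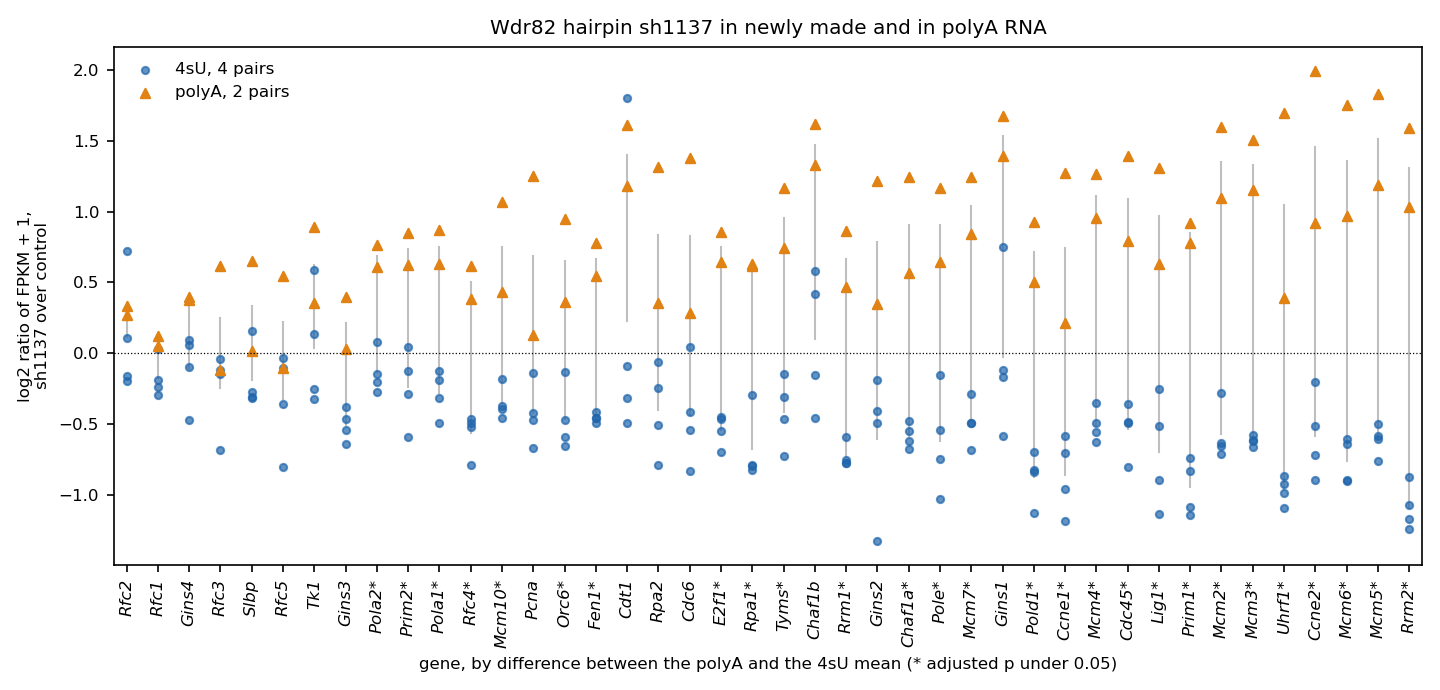
Log2 ratio of FPKM + 1, sh1137 over control (y axis), for each of the 42 genes, ordered by the difference between the polyA and 4sU means (x axis). Circles are the 4 unstranded 4sU pairs and triangles the 2 polyA pairs, joined at their means by a line; an asterisk marks the 27 genes whose difference passed, and Rrm2 at the right has the widest gap.

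In the libraries labelled Set1a and Set1b hairpins, the replication genes had small changes, most of them below 0. None of the 42 passed (limma, 0.0366% of all genes fell), and 18 were lower at an unadjusted p under 0.05, against 10.7% of all genes. The median log2 change was -0.22 against 0.02 for all genes, and 31 of the 42 lay below 0 in both pairs. Mcm6 had 50.5 and 58.2 FPKM with the hairpins (untreated and LPS 45 min) and 72.5 and 75.4 FPKM with the scrambled one, and Rrm2 had 48.1 and 45.3 FPKM with the hairpins and 58.8 and 61.0 FPKM with the scrambled one. For Mcm6 and Rrm2, given as examples, both hairpin values lay below both scrambled values, and the share of all genes without overlap was not counted. Pcna had 156 and 188 FPKM with the hairpins and 155 and 203 FPKM with the scrambled one, with overlapping groups. The neutrophil marker sum was higher in both hairpin libraries, as given above, and its part in the result was not tested.

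In the libraries labelled Pnuts sh, the replication genes were lower by a median of -0.87 on the log2 scale, against 0.05 for all genes, and 41 of the 42 lay below 0 in both pairs. None passed (limma, 0.0363% of all genes fell), while 38 were lower at an unadjusted p under 0.05, against 11.3% of all genes. In untreated cells 9 were at least 2-fold lower, against 2.89% of all genes, and after 45 min of LPS 17, against 4.21%. The deposited confidence bounds overlapped for each of the 42 in both of these pairs. Mcm5 had 24.2 and 21.7 FPKM with the hairpin (untreated and LPS 45 min) and 58.1 and 56.5 FPKM with the scrambled one (-1.28, SE 0.11, limma adjusted p = 0.089). Uhrf1 had 40.5 and 49.9 FPKM with the hairpin and 98.4 and 98.4 FPKM with the scrambled one. For Cdt1 the levels were 34.1 and 22.1 FPKM with the hairpin and 73.2 and 50.4 FPKM with the scrambled one, and for Pold1 14.4 and 9.82 FPKM with the hairpin and 33.9 and 22.4 FPKM with the scrambled one. For Mcm5, Uhrf1, Cdt1 and Pold1 both hairpin values lay below both scrambled values. These genes are examples, and the share of all genes without overlap was not counted. Rfc2 stood apart, with 20.5 and 18.2 FPKM with the hairpin and 20.2 and 20.3 FPKM with the scrambled one. Cd34, a progenitor marker, was 4.57 and 5.13 FPKM in the hairpin libraries and 20.2 and 25.0 FPKM in the scrambled ones, and its part in the result was not tested. With the Wdr82 and the Set1a and Set1b pairs, 10 in all, 19 of the 42 genes lay below 0 in every 4sU pair as labelled. The same number did so with the 2 Pnuts pairs added, and 0 would if the Pnuts labels were turned round. Since 41 of the 42 lay below 0 in both Pnuts pairs, these 2 counts follow largely from the first. The shares of all genes were not counted.

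LPS lowered newly made RNA of the replication genes after 2 h and more after 4 h. In the unstranded 4sU table, with the control and sh1137 libraries as repeats and the untreated libraries shared by the 3 contrasts, none of the 42 passed at 45 min (limma, 1.78% of all genes fell), and 5 were lower at an unadjusted p under 0.05, against 9.73%. At 2 h 21 fell and none rose, against 8.23% of all genes that fell, and at 4 h 31 fell and 1 rose, against 14.9% and 26.8% of all genes. The medians over the 42 genes were -0.03, -0.58 and -1.0 on the log2 scale at 45 min, 2 h and 4 h, while the median of all genes was 0.05, 0.05 and 0.14. The 1 h libraries of the stranded table (0.293% of all genes fell) and the 45 min libraries of the Set1a and Set1b (0.797%) and Pnuts (0.24%) tables gave no call. At an unadjusted p under 0.05, 4, 5 and 6 members were lower there, against 7.19%, 12.4% and 10% of all genes.

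Uhrf1 had the largest drop at 4 h. Its level was 31.4, 31.0, 15.3 and 3.89 FPKM in sh1137 cells and 60.6, 62.5, 34 and 7.94 FPKM in control cells (untreated, 45 min, 2 h and 4 h), so both 4 h values lay below every earlier one (log2 change at 4 h -2.76, SE 0.10, limma adjusted p = 0.00026). Rrm2 fell to 2.52 FPKM with sh1137 and 5.45 FPKM in the control at 4 h, against 19.6 FPKM and 42.4 FPKM in untreated cells (-2.65, SE 0.13, limma adjusted p = 0.00039). The S phase entry genes all fell, Ccne2 by 5.98-fold, Ccne1 by 4.29-fold and E2f1 by 3.79-fold. Of the 9 licensing genes 8 fell, Cdt1 being the exception. Cdc6 dropped to 0.848 FPKM with sh1137 and 0.792 FPKM in the control, against 7.00 FPKM and 10.7 FPKM in untreated cells (-2.41, SE 0.24, limma adjusted p = 0.0016). Within the MCM ring the drop ranged from 1.92-fold for Mcm6 to 4.54-fold for Mcm7, whose locus holds 7 genes. All 6 polymerase and primase genes fell, from -0.69 for Pola2 to -1.68 for Pold1 on the log2 scale. Both joining genes and all 4 chromatin genes fell too, Chaf1b by 5.03-fold and Slbp by 1.81-fold.

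Mcm10 went the other way. It had 18.3, 23.5, 16.8 and 40.5 FPKM in sh1137 cells and 24.5, 26.8, 22.0 and 56.2 FPKM in control cells (untreated, 45 min, 2 h and 4 h), so that both 4 h values lay above every earlier one (1.13, SE 0.11, limma adjusted p = 0.0014). Its locus, mm9 chromosome 2, 4910759 to 4933837, holds no other gene. Of the 8 clamp, loader and single-strand binding genes 3 fell at 4 h (Rfc1, Rfc4 and Rpa1). Pcna had 70.2 FPKM with sh1137 and 77.5 FPKM in the control at 4 h, against 82.7 FPKM and 115 FPKM in untreated cells (-0.40, SE 0.14, limma adjusted p = 0.074). Rfc3 had 24.6 and 25.3 FPKM at 4 h (sh1137 and control), against 17.7 and 19.7 FPKM in untreated cells (0.40, SE 0.18, limma adjusted p = 0.14).

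**Figure D4:**
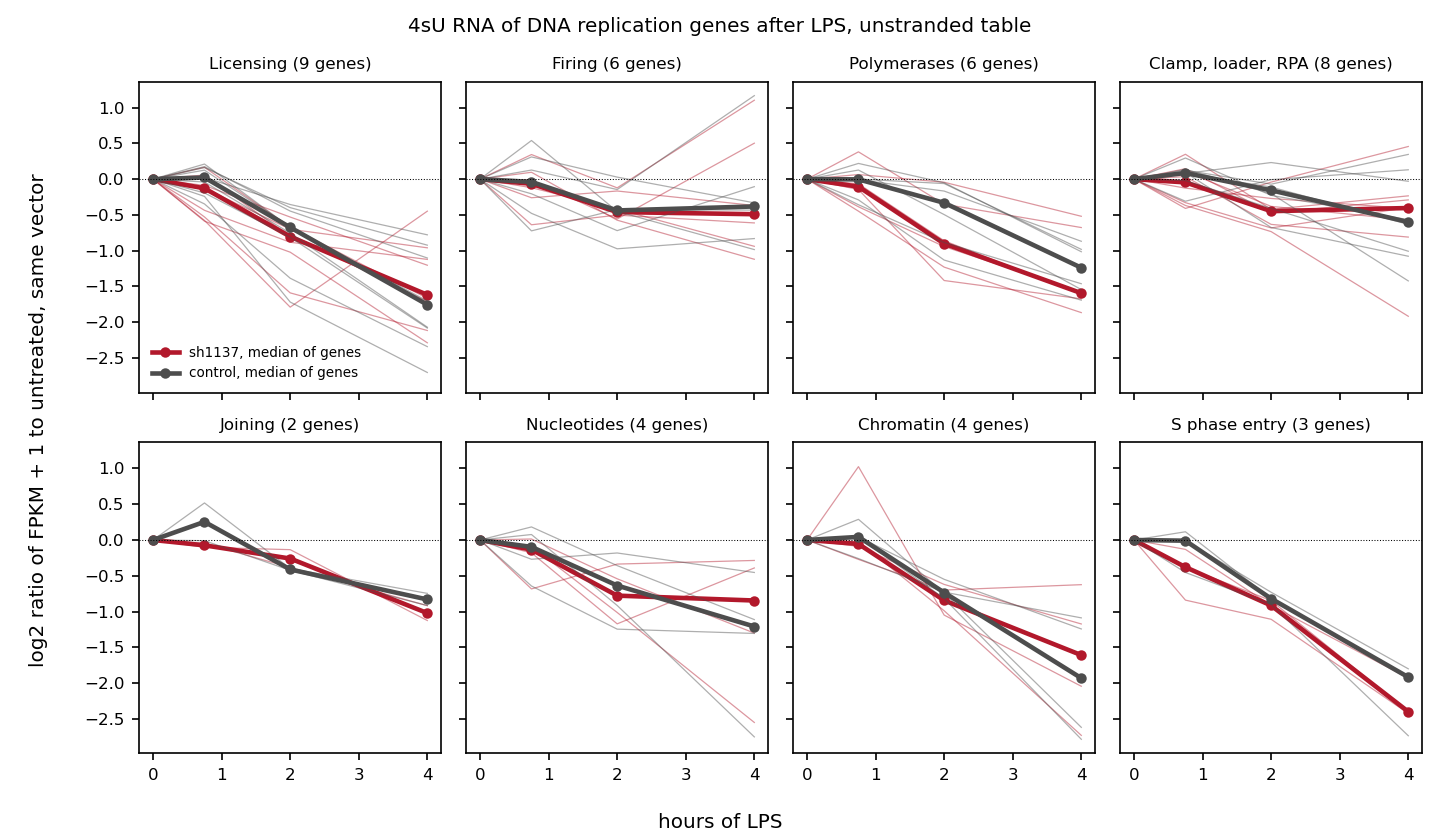
Log2 ratio of FPKM + 1 to the untreated library of the same vector (y axis) by hours of LPS (x axis) in unstranded 4sU RNA, with a panel for each role. Thin lines are genes and thick lines the median of the role, red for sh1137 and grey for control; most lines end below 0 at 4 h, and the 2 lines above 1 in the firing panel are Mcm10 in sh1137 and control cells.

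In polyA RNA after 4 h of LPS, 15 of the 42 genes fell and 2 rose (limma), against 11.8% and 23.5% of all genes. The median was -0.45 on the log2 scale against 0.14 for all genes. Of the genes that passed, Uhrf1 had the lowest log2 change, with 2.51 FPKM in sh1137 and 1.68 FPKM in control cells after LPS, against 18.7 FPKM and 5.07 FPKM in untreated cells (-1.83, SE 0.37, limma adjusted p = 0.034). Chaf1a (-1.37, SE 0.22), Pold1 (-1.19, SE 0.18), Rfc1 (-1.07, SE 0.12), Rrm2 (-1.04, SE 0.19) and Cdt1 (-1.0, SE 0.17) followed among the genes that passed. Cdc6 and Ccne2 lay within that range, at -1.35, SE 0.34, limma adjusted p = 0.054 for Cdc6 and -1.15, SE 0.32, limma adjusted p = 0.065 for Ccne2, and did not pass. Mcm10 rose, with 20.9 FPKM in sh1137 and 15.2 FPKM in control cells after LPS, against 9.32 FPKM and 3.91 FPKM before (1.41, SE 0.21, limma adjusted p = 0.019). The loader subunit Rfc3 also rose, with 25.4 and 27.6 FPKM after LPS, against 13.5 and 8.43 FPKM before (1.23, SE 0.23, limma adjusted p = 0.029). Pcna did not pass, with 121 and 111 FPKM after LPS, against 98.9 and 41.0 FPKM before. The LPS ratio at 4 h was higher in polyA than in 4sU RNA by a median of 0.80 on the log2 scale over the 42 genes, against -0.04 for all genes. None of the 42 differences passed (limma, 0.0159% of all genes higher in polyA RNA), and 21 were higher at an unadjusted p under 0.05, against 9.6% of all genes. Without the filter on low values none of the 42 passed in polyA RNA, and the share of all genes was not counted there.

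DRB gave calls in both directions, each at a share near that of all genes. In cells given LPS for 45 min, with sh1137 and the scrambled hairpin as repeats, 8 of the 42 rose and 10 fell (limma), against 24.1% and 17.6% of all genes. FPKM is scaled to each library, so these are changes relative to the other RNA in it. Ccne2 fell most, with 8.63 and 7.05 FPKM with DRB (sh1137 and scrambled), against 31.3 and 43.5 FPKM without it (-2.11, SE 0.23, limma adjusted p = 0.0053). Gins3 had 1.34 and 1.94 FPKM with DRB and 6.01 and 7.84 FPKM without (-1.59, SE 0.23, limma adjusted p = 0.0086), and Orc6 had 5.27 and 8.16 FPKM with DRB and 15.9 and 22.6 FPKM without (-1.40, SE 0.17, limma adjusted p = 0.0065). Ccne1, Slbp, Cdc6, Chaf1b, Rrm2, Mcm10 and Cdt1 also fell, by 1.45-fold for Cdt1 to 2.32-fold for Ccne1. Prim2, the large primase subunit, rose most, with 28.3 and 39.6 FPKM with DRB and 12.8 and 16.1 FPKM without (1.17, SE 0.16, limma adjusted p = 0.0076). Pola1 had 25.0 and 38.8 FPKM with DRB and 13.8 and 15.9 FPKM without (1.02, SE 0.18, limma adjusted p = 0.013), but shares its locus with 2 other genes. Lig1, Rfc2, Pole, Mcm5, Gins4 and Rpa1 rose by 1.45-fold to 1.73-fold. Without the filter on low values none of the 42 passed in either direction, and without the trend 2 rose. Shares of all genes under these settings were not counted.

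**Figure D5:**
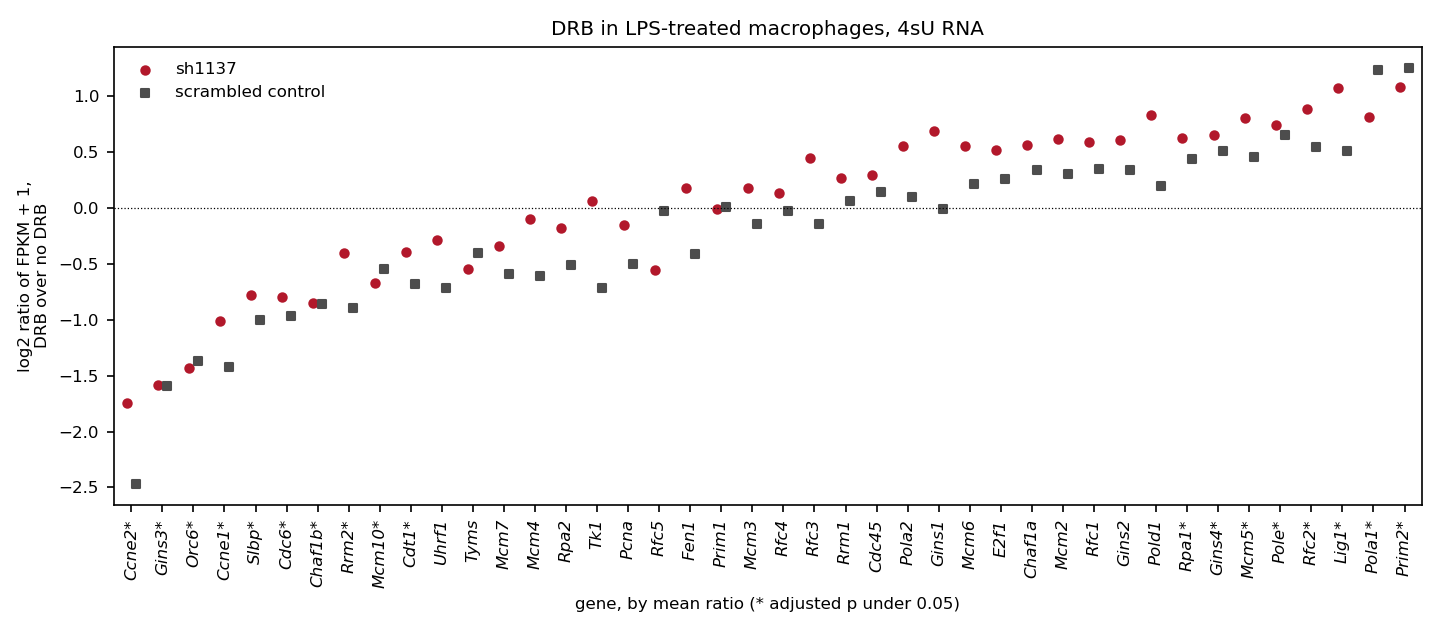
Log2 ratio of FPKM + 1, DRB over no DRB (y axis), for the 42 genes ordered by their mean ratio (x axis), in 4sU RNA of cells given LPS for 45 min. Circles are sh1137 and squares the scrambled hairpin, with 1 pair of libraries each; asterisks mark the 10 genes that fell, at the left end, and the 8 that rose, at the right end.

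A list of 46 other replication genes was read in the same fits. With sh1137 in unstranded 4sU RNA 9 fell and 1 rose, against 5.66% and 5.28% of all genes. The lowest were Cdca7 (log2 change -0.83), which helps recruit the chromatin remodeller HELLS, and the checkpoint adaptor Clspn (-0.78), and the one that rose was Pold4 (0.48), a small subunit of polymerase delta. In stranded 4sU RNA 1 fell, against 1.07% of all genes, the origin kinase gene Cdc7 (-1.04). After 2 h of LPS 20 fell and none rose in unstranded 4sU RNA, against 8.23% of all genes that fell, with Cdca7 (-2.13) and Dtl (-2.05) lowest. After 4 h of LPS 24 fell and 5 rose in unstranded 4sU RNA, against 14.9% and 26.8% of all genes, so the share that rose was below that of all genes. Cdca7 (-3.31) and Dtl (-2.84), which targets CDT1 for destruction, were the lowest, and the MCM-binding Mcmbp (1.5) and the histone chaperone Asf1a (1.16) the highest. In polyA RNA after 4 h of LPS 12 fell and 5 rose, against 11.8% and 23.5% of all genes, with the geminin gene Gmnn (-1.91) and Clspn (-1.86) lowest, and Mcmbp (2.09) and the fork protection gene Timeless (1.67) highest. The sh1137 ratio was higher in polyA than in 4sU RNA for 14 of the 46, against 2.71% of all genes, led by Dut (1.99), which degrades dUTP, and Clspn (1.88), with Dbf4 (0.73) and Pole4 (0.87) the smallest of them. With DRB 13 fell and 3 rose, against 17.6% and 24.1% of all genes, with Pold3 (-1.50) and Cdc7 (-1.46) lowest and Rrm2b (2.64) and Pold4 (0.88) highest.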

How the data were processed

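RNA-seq of mouse macrophages was read from 6 tables of FPKM values per gene that the authors deposited, 28 libraries in all. They were made with TopHat 1.3.1, Cufflinks 2.1.1 and Cuffdiff 2.1.1 on mm9, per the submitters' processing notes. FPKM is scaled per library and per table and keeps no read count, so depth in reads is unknown.

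Genes with an FPKM of at least 1 in any library of a table and a status of OK in all were tested on log2(FPKM + 1) with limma 3.58.1 in R 4.3.3 (empirical Bayes with a mean-variance trend), with hairpin and state as additive terms, which left 3 residual degrees of freedom in the unstranded 4sU table and 1 in the others. On this scale changes of low genes are understated. Differences between polyA and 4sU RNA were tested on ratios within tables, with the trend on mean level, with 4 residual degrees of freedom for sh1137 and 2 for LPS. P-values were adjusted by Benjamini-Hochberg over all genes. Single pairs were described by a 2-fold change. The fits were run on simulated data with independent noise and with changes larger than those of the members with sh1137. Such data cannot test the calls made here. The members and lists were chosen with earlier results of these data known. All 42 members were described, and of other replication genes the 2 highest and 2 lowest past the threshold were named. Alternatives were another pseudocount, other filters, no trend, leaving out pairs and matched times.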

Additional observations from a re-analysis of the deposited data

Results flagged for a closer look

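For 27 of the 42 genes the sh1137 log2 ratio differed between polyA and unstranded 4sU RNA by a test of the difference itself (limma, adjusted p under 0.05). Of all genes tested, 2.71% were higher in polyA RNA by that test. With matched times 0 of the 42 passed, and without the filter on low values 8 did, with shares of all genes not counted. Each value given here is the polyA mean ratio minus the 4sU mean ratio. Among licensing genes it was 2.12 for Mcm5, 2.12 for Mcm6, 1.95 for Mcm3, 1.92 for Mcm2, 1.62 for Mcm4, 1.53 for Mcm7 and 1.1 for Orc6. Among firing genes it was 1.63 for Cdc45 and 1.10 for Mcm10. The polymerase and primase genes gave 1.80 for Prim1, 1.58 for Pold1, 1.52 for Pole, 1.03 for Pola1, 0.98 for Prim2 and 0.82 for Pola2. Rpa1 was at 1.3 and Rfc4 at 1.07, and the joining genes Lig1 and Fen1 at 1.67 and 1.1. Nucleotide supply gave 2.40 for Rrm2, 1.39 for Rrm1 and 1.37 for Tyms, and chromatin genes 2.01 for Uhrf1 and 1.49 for Chaf1a. The S phase entry genes were at 2.04 for Ccne2, 1.60 for Ccne1 and 1.29 for E2f1.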

How the results depend on the processing

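Without the filter on low values, the members lower with sh1137 numbered 5 in unstranded (20 with it) and 0 in stranded 4sU RNA (4), those lower after 2 h of LPS 10 (21), those higher and lower after 4 h of LPS in polyA RNA 0 and 0 (2 and 15), those higher and lower with DRB 0 and 0 (8 and 10), and those whose sh1137 ratio was higher in polyA RNA 8 (27). A pseudocount of 0.1 gave 7 lower members in stranded 4sU RNA and 1 each after 45 min of LPS in the Set1a and Set1b and the Pnuts tables (0 and 0). A filter at 5 FPKM gave 9, 2 and 1. Without the trend 0 members were lower in stranded 4sU RNA and 2 were higher with DRB. Leaving out each time in turn gave 0 to 8 lower members in unstranded 4sU RNA, and matched times gave 0 differences between polyA and 4sU RNA. No direction reversed in these alternatives. Shares of all genes called in them were not counted. A loss of calls among the members thus cannot be told apart from a general one. Of the results for single genes, 3346 kept direction and side of the threshold, 218 no longer passed and 40 newly passed. The cause was not tested. The fits already set each hairpin library against the control of the same state. No paired analysis was possible because, beyond that, the labels give no replicate numbers to use as a block. With 1 residual degree of freedom in 5 of the tables, a lack of calls does not show a lack of change.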

Other observations

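Genes of other cell cycle stages were counted in the same fits. With sh1137 in unstranded 4sU RNA 20 of 25 mitosis genes fell and none rose, and of 20 G1 and S phase regulators 3 fell and 1 rose (limma), against 5.66% and 5.28% of all genes. After 4 h of LPS 18 mitosis genes fell and 1 rose, and 11 regulators fell and 4 rose, against 14.9% and 26.8% of all genes, so in both lists the share that rose was below that of all genes. The sh1137 ratio was higher in polyA than in 4sU RNA for 20 mitosis genes and 2 regulators, against 2.71% of all genes.

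The longest loci among the 42 genes were those of Pola1 (327 kb) and Prim2 (216 kb), and both rose with DRB. Across the 42 genes Spearman's rho between locus length and the DRB log2 change was 0.44, and across the 29 with a locus of their own 0.41. The genes share the same 4 libraries and are not independent, so this is a description.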
